A study of Mus musculus with 8 samples.

Results

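The genes described here encode the heat shock proteins and the J proteins (DNAJ co-chaperones). Members were all genes whose single annotated symbol starts with Hspa, Hspb, Hspd, Hspe, Hsph or Hsp and a digit, or with Dnaja, Dnajb or Dnajc and a digit. This gave 73 of 19532 named genes, measured by 143 of 41174 probes. Liver RNA came from 4 Per2Brdm1 mutant mice, whose zygosity the labels do not give, and from 4 wild-type (WT) mice. Per2 encodes a repressor of the circadian clock. The Brdm1 allele is a germ-line deletion of part of its PAS region, so it is present in every cell of the animal. The mice of both groups belonged to 1 cohort on a mixed background of 129sv and C57Bl/6, and all of them were killed after 8 h of starvation. Age, sex and clock time are not given in the sources used here. Each mouse was hybridised to 1 Agilent array with Cy3, and precision is limited by this number of arrays.

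Heat shock proteins are chaperones that bind unfolded protein. HSP70 proteins hold and release their clients in a cycle driven by ATP, which J proteins start and nucleotide exchange factors such as HSP110 complete, while HSP90 acts on nearly folded clients and small heat shock proteins hold aggregating ones. The inducible cytosolic members are transcribed through heat shock factor 1, which binds repeated heat shock elements in their promoters, whereas the mitochondrial and endoplasmic reticulum (ER) members serve protein import and secretion and follow separate stress responses. In mouse liver several cytosolic members are known to cycle daily with body temperature and feeding.

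The deposited values were centred on the median of each probe over the 8 arrays. They therefore give differences between mice on a scale taken as log2, and no levels, so genes cannot be ranked by abundance and marker genes cannot be called present or absent. All differences are Per2Brdm1 minus WT ± the standard error of a limma fit to all 28042 rows (named genes and single unnamed probes), and a gene was called at a Benjamini-Hochberg adjusted p under 0.05. The Per2 probes moved in opposite directions. Probe A_51_P282760 was lower in the Per2Brdm1 mice by -1.70 ± 0.12 (adjusted p = 0.000333), and probe A_52_P536869 was higher by 2.54 ± 0.13 (adjusted p = 0.000123), so the genotypes were separated by both probes but not in 1 direction. The median of the 78 control features was -0.66 in WT mouse 2 and -0.43 in WT mouse 3 and lay between -0.04 and 0.13 in the other mice. The scaling shifts were -0.09 to -0.01 in the Per2Brdm1 arrays and 0.05 to 0.07 in the WT arrays, so they ran with genotype. The median difference of all rows was 0.08 after this shift and 0.20 in the values as deposited. Of all calls 42.2% were higher after the shift and 61.4% as deposited. Cell markers also differed between the groups. Of 11 Kupffer cell markers 10 rose, with means over the list of 0.46 to 0.77 in the Per2Brdm1 mice and -0.78 to -0.30 in the WT mice. Of 10 squamous epithelium markers 6 fell, with means of -1.42 to -0.93 in the Per2Brdm1 mice and 1.01 to 3.05 in the WT mice. In bulk RNA a change in the number of cells of a type and a change in RNA per cell cannot be told apart.

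Among the 73 members, 6 were higher and 9 were lower in the Per2Brdm1 livers. Of all rows tested 6.52% were called higher and 8.93% lower, 15.5% in all, so the count of calls alone did not set the members apart. Of the 19532 named genes alone 1393 were called higher and 2048 lower. At an unadjusted p under 0.05 the counts were 13 higher and 20 lower of the 73 members, where 13.7% of all rows were higher and 16.6% lower. In the fit of single probes 9 members had a probe called higher and 16 a probe called lower, where 9.93% and 15.2% of all named genes had one. By the methods' t-test per probe with Benjamini-Hochberg adjustment 8 members had a probe higher and 19 a probe lower, where 9.68% and 17.2% of all named genes had one. The groups did not overlap in 9 members that were above WT (10.0% of all rows) and in 18 that were below it (14.6% of all rows, 24.6% in either direction). The median member difference was -0.06 after scaling and 0.06 in the values as deposited, so the sign of the median was set by the scaling. After scaling the median was 0.009 over the named genes and 0.08 over all rows. The members did not move as 1 block. All 6 genes called higher encode cytosolic chaperones, namely Hspa1a, Hspa1b, Hspa1l, Hspb1, Hsph1 and Hspa8. The 9 genes called lower were the mitochondrial Hspa9 and Dnajc19, the ER gene Hsp90b1, the small heat shock protein gene Hspb9, and 5 J protein genes, Dnajc4, Dnajc14, Dnajc17, Dnajc25 and Dnajc28. With the values as deposited the calls were 8 higher and 3 lower, where 2449 of all rows were higher and 1537 lower.

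**Figure D1:**
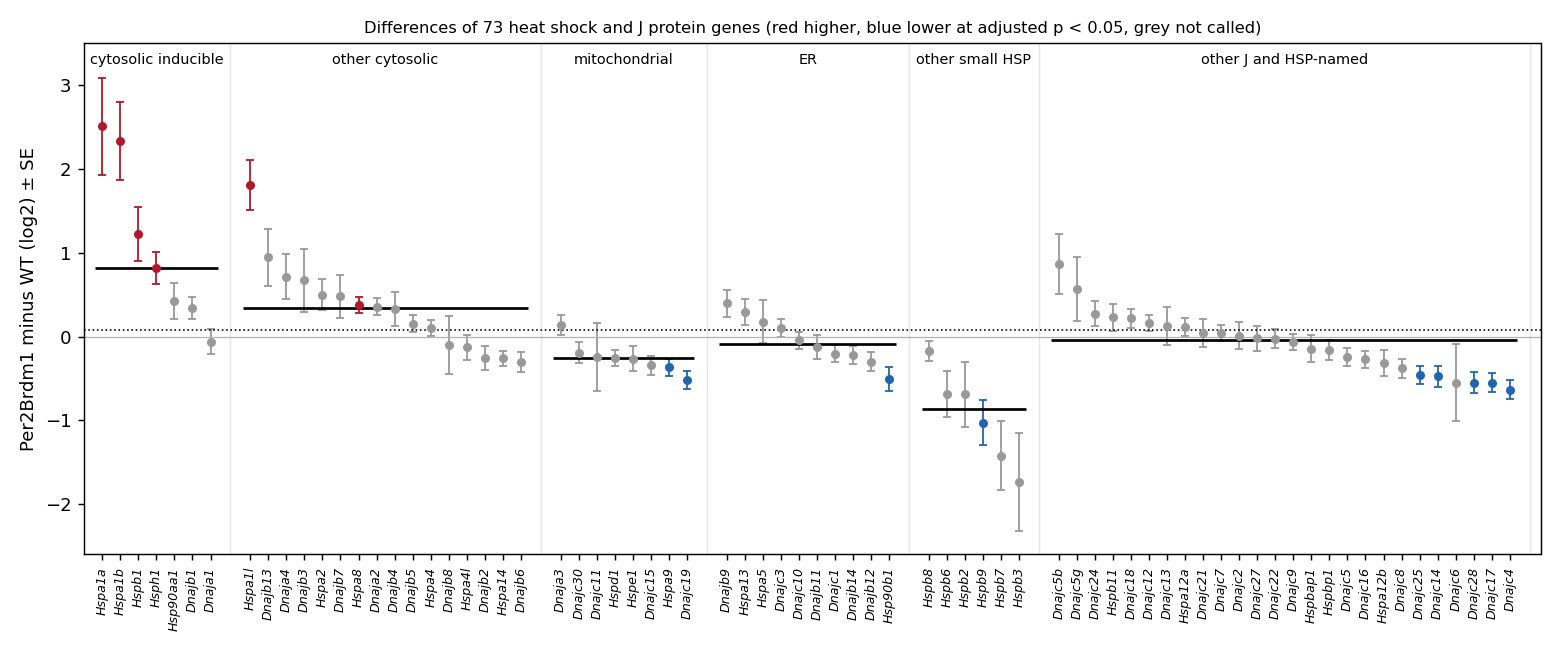
Differences (Per2Brdm1 minus WT, log2, points, with SE of the limma fit as bars) of the 73 members in 6 classes, coloured by call. Black lines are the class medians, from 0.82 in the cytosolic inducible class to -0.86 in the other small heat shock proteins. The dotted line is the median of all rows at 0.08, and that of the named genes alone is 0.009. The ER median of -0.09 becomes 0.03 in the values as deposited.

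The 7 inducible cytosolic genes held the 2 largest rises of all members. Of these 7 genes 4 rose (Hspa1a, Hspa1b, Hspb1 and Hsph1), 0 fell by limma (5 higher and 0 lower at an unadjusted p under 0.05), and the class median was 0.82. Because these genes share regulation through heat shock factor 1, the promoter of each riser is shown first, as the 250 bases before the RefSeq start site in GRCm38.p6, 5′ to 3′, with capitals marking each pair of adjacent heat shock units (GAANNTTC or TTCNNGAA).
Hspa1a, chr17:34972157-34972406, minus strand: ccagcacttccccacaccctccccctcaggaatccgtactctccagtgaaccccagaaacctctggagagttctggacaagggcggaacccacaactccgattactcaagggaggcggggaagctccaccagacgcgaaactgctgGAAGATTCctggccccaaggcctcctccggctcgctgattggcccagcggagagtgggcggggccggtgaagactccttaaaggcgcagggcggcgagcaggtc
Hspa1b, chr17:34959239-34959488, minus strand: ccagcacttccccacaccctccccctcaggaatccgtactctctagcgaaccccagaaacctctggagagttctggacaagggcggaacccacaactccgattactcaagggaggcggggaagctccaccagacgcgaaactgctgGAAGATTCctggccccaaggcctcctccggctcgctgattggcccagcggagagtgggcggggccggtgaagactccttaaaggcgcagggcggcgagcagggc
Hspb1, chr5:135887669-135887918, plus strand: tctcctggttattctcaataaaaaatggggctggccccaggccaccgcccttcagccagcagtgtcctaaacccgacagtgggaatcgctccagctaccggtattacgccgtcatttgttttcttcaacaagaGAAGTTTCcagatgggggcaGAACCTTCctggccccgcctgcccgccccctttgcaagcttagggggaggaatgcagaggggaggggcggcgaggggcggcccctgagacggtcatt
Hsph1, chr5:149636316-149636565, minus strand: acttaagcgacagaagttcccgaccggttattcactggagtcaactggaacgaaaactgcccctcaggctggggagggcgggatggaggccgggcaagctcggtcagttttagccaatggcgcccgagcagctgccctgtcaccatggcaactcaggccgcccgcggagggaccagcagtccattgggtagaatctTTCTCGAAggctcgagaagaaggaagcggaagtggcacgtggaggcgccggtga
The Hspa1a and Hspa1b promoters differed at 3 of 250 bases, and each held its pair of units between 104 and 97 bases before the start. The genes are neighbours on chromosome 17 and nearly identical, so their probes may share signal and the 2 results may not be separate measurements. The Hspb1 promoter held 2 pairs of units between 117 and 90 bases before the start. In Hsph1 the printed pair lay between 54 and 47 bases before the start, and a match to 3 units lay after the start, from base 15 to base 27.

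Hspa1a, a stress-inducible HSP70 gene, had values of 3.07, 1.69, 0.76 and 0.32 in Per2Brdm1 mice 1 to 4, against -1.50, -0.32, -1.20 and -1.17 in WT mice 1 to 4. Every Per2Brdm1 mouse lay above every WT mouse, but the Per2Brdm1 values spread widely, with mouse 1 far above mouse 4. The mean was 1.46 ± 1.22 in the Per2Brdm1 mice and -1.05 ± 0.50 in the WT mice (SD, n = 4 each), a difference of 2.51 ± 0.58 or 5.69-fold (adjusted p = 0.0258). Its 2 probes gave similar differences of 2.46 and 2.56. Hspa1b, the other inducible HSP70 gene, had 2.37, 1.94, 1.33 and 0.19 in Per2Brdm1 mice 1 to 4, against -0.69, -0.38, -0.98 and -1.44 in WT mice 1 to 4. The order of the Per2Brdm1 mice was that of Hspa1a, and the groups again did not overlap. The difference was 2.33 ± 0.47 or 5.03-fold (adjusted p = 0.0149).

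Hspb1, which encodes a small heat shock protein that holds unfolding clients, had 0.92, 0.78, 0.08 and 0.17 in Per2Brdm1 mice 1 to 4, against -1.46, -0.10, -0.62 and -0.77 in WT mice 1 to 4. Per2Brdm1 mice 3 and 4 were close to WT mouse 2, the highest WT mouse, and the groups did not overlap. The difference was 1.22 ± 0.32 or 2.33-fold (adjusted p = 0.0390). Hsph1, the HSP110 that exchanges nucleotide on HSP70, had 0.87, 0.81, 0.35 and 0.09 in Per2Brdm1 mice 1 to 4, against -0.25, -0.09, -0.42 and -0.40 in WT mice 1 to 4. Here too Per2Brdm1 mice 1 and 2 were high, mouse 4 was nearest to WT, and the groups did not overlap. The difference was 0.82 ± 0.19 or 1.76-fold (adjusted p = 0.0281).

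The other 3 genes of the class were not called. Hsp90aa1, the inducible cytosolic HSP90, had 0.77, 0.84, 0.33 and -0.13 in Per2Brdm1 mice 1 to 4, against 0.08, -0.0003, 0.02 and 0.03 in WT mice 1 to 4. Of the Per2Brdm1 mice 3 lay above WT and mouse 4 below it, while the WT mice were nearly equal. The difference was 0.42 ± 0.21 (adjusted p = 0.203), and without Per2Brdm1 mouse 4 it was 0.61 (adjusted p = 0.0432). No other alternative fit of gene values called it (adjusted p = 0.120 to 0.524). Dnajb1, the main J protein partner of inducible HSP70, had 0.47, 0.38, -0.02 and 0.20 in Per2Brdm1 mice 1 to 4, against -0.14, -0.02, -0.12 and -0.07 in WT mice 1 to 4. Its Per2Brdm1 mouse 3 lay just inside the WT range. The difference was 0.34 ± 0.13 (adjusted p = 0.118), and in the values as deposited it was 0.46 (adjusted p = 0.0442). In those values the median of all rows also rose, from 0.08 to 0.20. No other alternative fit of gene values called Dnajb1 (adjusted p = 0.0562 to 0.302). Dnaja1, a J protein that farnesylation tethers to membranes, overlapped fully, with a difference of -0.06 ± 0.15 (adjusted p = 0.780) that was 0.06 as deposited and 0.06 without Per2Brdm1 mouse 4.

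The Per2Brdm1 mice kept a similar order across the class, and the WT mice did not. WT mouse 1 was the lowest of all 8 mice for Hspa1a, Hspb1 and Dnajb1. For Dnaja1 it stood at 0.09, above Per2Brdm1 mouse 1 at 0.05. The class mean was 1.22, 0.95, 0.40 and 0.06 in Per2Brdm1 mice 1 to 4, against -0.55, -0.12, -0.49 and -0.55 in WT mice 1 to 4. Hspa1a and Hspa1b, which may not be separate measurements, weigh heavily in this mean. The median over the class was 0.87, 0.81, 0.33 and 0.17 in Per2Brdm1 mice 1 to 4. In WT mice 1 to 4 it was -0.25, -0.09, -0.42 and -0.40. Per2Brdm1 mouse 1 was the highest of all 8 mice for 5 of the 7 genes, and Per2Brdm1 mouse 2 was the highest for the other two, Hsp90aa1 and Dnaja1. The Kupffer cell markers rose in every Per2Brdm1 mouse but did not follow this order, with their highest mean of 0.77 in Per2Brdm1 mouse 4, where the class mean was the lowest of the Per2Brdm1 mice. Whether macrophage content had a part in the rises was not tested. The call of Hspa1a was lost when Per2Brdm1 mouse 2 or WT mouse 1, 3 or 4 was left out (adjusted p = 0.0580 to 0.0680), that of Hspb1 when any mouse was left out except Per2Brdm1 mouse 3 and WT mouse 2 (adjusted p = 0.0571 to 0.0988), and that of Hsph1 when Per2Brdm1 mouse 1 or 2 or WT mouse 1, 3 or 4 was left out (adjusted p = 0.0538 to 0.0768). The call of Hspa1b held in each of these 8 fits.

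**Figure D2:**
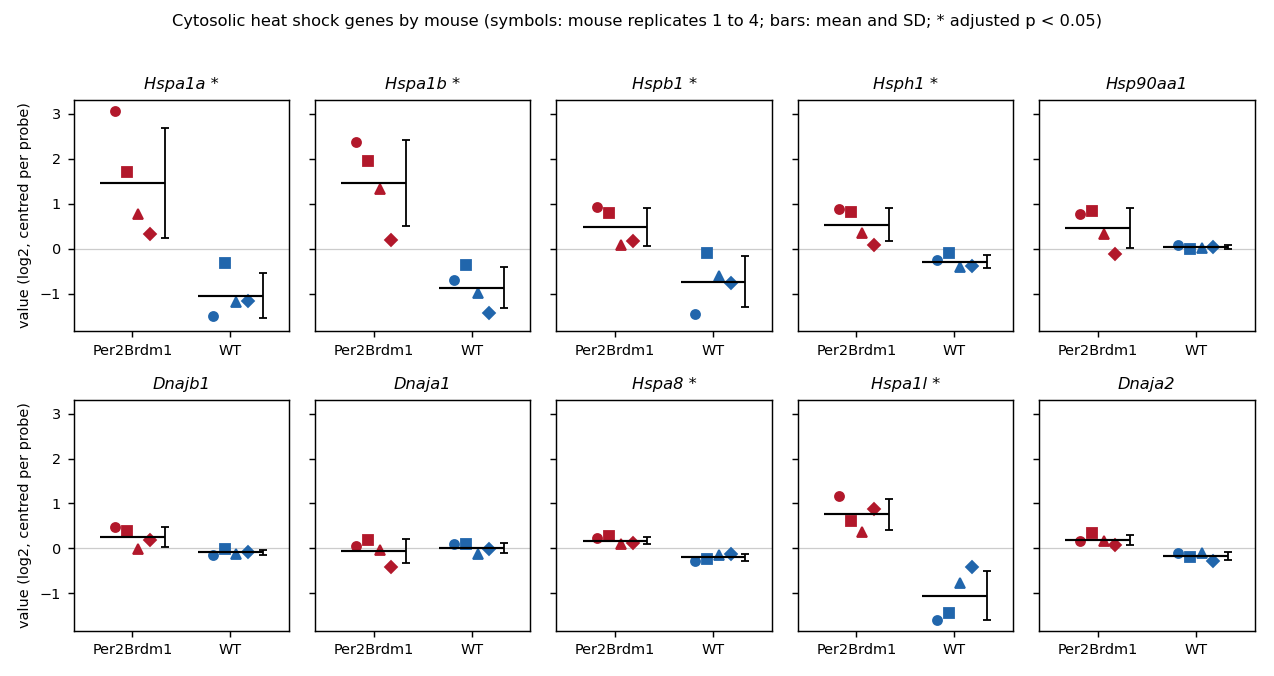
Values (log2, centred per probe) of the 7 inducible and 3 other cytosolic chaperone genes in each mouse, Per2Brdm1 left and WT right, with mean and SD as bars and n = 4 per group. Hspa1a and Hspa1b spread over more than any other gene shown, and Per2Brdm1 mouse 4 (diamond) lies nearest to the WT mice in Hspa1a, Hspa1b and Hsph1.

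The remaining cytosolic HSP70, HSP90 and class A and B J protein genes numbered 16 measured of 17 listed, and the constitutive HSP90 gene Hsp90ab1 was not analysed here. Of these 16 genes 2 rose and 0 fell by limma (6 higher and 2 lower at an unadjusted p under 0.05), with a median of 0.34. Hspa1l, an HSP70 gene known in the mouse mainly from testis and next to Hspa1a on chromosome 17, had 1.17, 0.61, 0.38 and 0.87 in Per2Brdm1 mice 1 to 4, against -1.58, -1.43, -0.77 and -0.41 in WT mice 1 to 4. All Per2Brdm1 mice were above 0 and all WT mice below it, and the order of the Per2Brdm1 mice differed from that of Hspa1a. The difference was 1.80 ± 0.30 or 3.49-fold (adjusted p = 0.00700), and the call held without each mouse in turn. Of 8 testis markers 0 were called by limma (2 higher at an unadjusted p under 0.05), with list means of -0.09 to 0.40 in the Per2Brdm1 mice and -0.63 to -0.01 in the WT mice.

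Hspa8, the constitutive HSP70 that also uncoats clathrin vesicles, had 0.23, 0.27, 0.09 and 0.12 in Per2Brdm1 mice 1 to 4, against -0.27, -0.24, -0.15 and -0.12 in WT mice 1 to 4. The groups did not overlap, and the spread within each was small. The difference was 0.37 ± 0.10 or 1.29-fold (adjusted p = 0.0370), and the call was lost without any single mouse (adjusted p = 0.0597 to 0.0957). Dnaja2, a J protein that works with Hspa8, had 0.17, 0.34, 0.17 and 0.08 in Per2Brdm1 mice 1 to 4, against -0.11, -0.19, -0.10 and -0.28 in WT mice 1 to 4. Its groups did not overlap either, and its difference of 0.36 ± 0.10 just missed the threshold (adjusted p = 0.0526). Its only probe passed in the fit of single probes (adjusted p = 0.0483). Among the others, the sperm flagellar J protein gene Dnajb13 differed by 0.95 ± 0.34 (adjusted p = 0.104) and Dnaja4, a heat-inducible class A J protein gene, by 0.72 ± 0.27 (adjusted p = 0.119). Both overlapped WT. Most alternative fits of gene values did not call Dnajb13 (adjusted p = 0.0779 to 0.432). It passed only without WT mouse 4 (1.24, adjusted p = 0.0252). Dnajb13 was lowest in WT mice 2 and 3 (-1.06 and -1.15), the mice with low control features, which that fit keeps. Its probes also disagreed in Per2Brdm1 mouse 3, at 1.27 and -0.73. At the low end stood Dnajb6, a suppressor of protein aggregation, at -0.31 ± 0.12 (adjusted p = 0.135).

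The mitochondrial members lay on the other side of 0. Of the 8 genes 2 fell and 0 rose by limma (0 higher and 4 lower at an unadjusted p under 0.05), 7 of the 8 differences were negative, and the class median was -0.26, or -0.14 in the values as deposited. Differences were positive in 33 of the 73 members and in 9919 of the 19532 named genes. The 8 signs are not all separate or stable. Hspd1 and Hspe1 are neighbours, and the sign of Dnajc11 depended on single mice. Hspa9, the HSP70 of the mitochondrial matrix, had -0.30, -0.06, -0.21 and -0.25 in Per2Brdm1 mice 1 to 4, against 0.18, 0.13, 0.29 and 0.07 in WT mice 1 to 4. The groups did not overlap and came closest between Per2Brdm1 mouse 2 and WT mouse 4. The difference was -0.37 ± 0.10 (adjusted p = 0.0482), neither of its 2 probes passed alone, and the call was lost without any single mouse (adjusted p = 0.0571 to 0.126). Dnajc19, a J protein of the import motor at the inner membrane, had -0.45, -0.30, -0.21 and -0.22 in Per2Brdm1 mice 1 to 4, against 0.39, 0.19, 0.13 and 0.20 in WT mice 1 to 4. Every Per2Brdm1 mouse was below every WT mouse. The difference was -0.52 ± 0.11 or 1.44-fold lower (adjusted p = 0.0167), and it held without each mouse in turn.

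Hspd1 and Hspe1 encode the chaperonin HSP60 and its lid HSP10 and lie head to head on chromosome 1. The Hspe1 promoter is shown because it held the densest run of heat shock units of the printed ones. Capitals mark 18 bases between 89 and 72 before the start, in which 3 overlapping pairs form 2 overlapping matches to 3 units.
Hspe1, chr1:55087898-55088147, plus strand: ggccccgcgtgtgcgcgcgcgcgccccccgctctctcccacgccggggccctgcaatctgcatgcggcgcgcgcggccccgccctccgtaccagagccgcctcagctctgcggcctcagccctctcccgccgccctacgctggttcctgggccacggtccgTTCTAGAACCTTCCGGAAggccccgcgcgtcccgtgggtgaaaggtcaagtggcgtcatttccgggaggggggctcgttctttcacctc
Hspd1 had -0.12, -0.05, -0.15 and -0.28 in Per2Brdm1 mice 1 to 4, against 0.19, 0.10, 0.10 and 0.04 in WT mice 1 to 4. The groups did not overlap, and the difference of -0.26 ± 0.10 was not called (adjusted p = 0.116). Hspe1 had 0.25, -0.10, -0.29 and -0.21 in Per2Brdm1 mice 1 to 4, against 0.15, -0.03, 0.27 and 0.32 in WT mice 1 to 4, and Per2Brdm1 mouse 1 lay within the WT range. Its difference was -0.26 ± 0.15 (adjusted p = 0.230). Dnajc15, a relative of Dnajc19 at the same import motor, differed by -0.34 ± 0.11 without overlap (adjusted p = 0.0757). The ATP synthase partner Dnajc30 differed by -0.19 ± 0.13 (adjusted p = 0.277), and Dnaja3, the matrix partner of Hspa9, by 0.14 ± 0.12 (adjusted p = 0.417). Dnajc11, which binds the cristae-organising complex, was the noisiest of the class, from -0.99 in Per2Brdm1 mouse 3 to 1.15 in WT mouse 1. Its difference of -0.24 ± 0.41 (adjusted p = 0.688) was 0.05 without Per2Brdm1 mouse 3 and 0.10 without WT mouse 1. The wide spread lay in 1 of its 2 probes, which stood at -1.89 and 2.29 in these mice. The other probe differed by -0.19 ± 0.09 without overlap (adjusted p = 0.191 in the fit of single probes).

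Of the 10 members listed as ER genes 1 fell and 0 rose by limma (1 higher and 2 lower at an unadjusted p under 0.05). The class median was -0.09 after scaling and 0.03 as deposited, so the sign of this median was set by the scaling. With 3 further J proteins of the ER membrane that the list leaves among the other J proteins (Dnajc14, Dnajc16 and Dnajc18), an alternative added after the values were seen, 2 of 13 fell, the second being Dnajc14, and the median was -0.12 after scaling and -0.005 as deposited. Hsp90b1, the ER form of HSP90, was the member called, and its promoter is shown with capitals marking both matches to the ER stress element (CCAAT and then CCACG, 19 letters of which 10 are fixed, either strand), from 212 to 194 and from 107 to 89 bases before the start.
Hsp90b1, chr10:86705445-86705694, minus strand: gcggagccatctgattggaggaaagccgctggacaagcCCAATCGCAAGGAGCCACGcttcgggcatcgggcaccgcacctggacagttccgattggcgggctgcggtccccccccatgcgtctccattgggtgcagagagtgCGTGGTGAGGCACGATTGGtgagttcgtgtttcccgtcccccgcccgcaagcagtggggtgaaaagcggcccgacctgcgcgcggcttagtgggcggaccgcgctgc
Hsp90b1 had -0.30, 0.03, -0.46 and -0.53 in Per2Brdm1 mice 1 to 4, against 0.25, 0.08, 0.16 and 0.28 in WT mice 1 to 4. Per2Brdm1 mouse 2 came within a small distance of WT mouse 2, and the groups did not overlap in this mean of 2 probes. The difference was -0.51 ± 0.14 or 1.42-fold lower (adjusted p = 0.0498). This call was lost without any mouse except Per2Brdm1 mouse 2 (adjusted p = 0.0718 to 0.118) and under each other scaling (adjusted p = 0.0502 to 0.0948). In the fit of single probes 1 Hsp90b1 probe was called (-0.68 ± 0.14, adjusted p = 0.0163). The other was not (-0.33 ± 0.15, adjusted p = 0.186), and its groups overlapped.

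Hspa5, the ER HSP70 known as BiP, had 0.54, 0.72, -0.05 and -0.47 in Per2Brdm1 mice 1 to 4, against 0.17, -0.15, -0.03 and 0.02 in WT mice 1 to 4. The Per2Brdm1 mice lay on both sides of the narrow WT range, with mice 1 and 2 high and mouse 4 low, as in Hsp90aa1. The difference was 0.18 ± 0.26 (adjusted p = 0.641), and without Per2Brdm1 mouse 2 it was -0.0001. The highest difference of the class was that of Dnajb9, an Hspa5 partner that is known to rise in ER stress, at 0.40 ± 0.16 (adjusted p = 0.144). Hspa13, an HSP70-like ATPase of microsomes, differed by 0.30 ± 0.15 (adjusted p = 0.209). This value rests largely on a probe that followed the control features (0.45, correlation 0.98) and another close to them (0.49, correlation 0.86). Its remaining probes differed by 0.19 and 0.06. Without WT mice 2 and 3, the mice with low control features, Hspa13 differed by 0.06. Dnajc3, an inhibitor of the ER stress kinase PERK, differed by 0.10 ± 0.10 (adjusted p = 0.502), and Dnajb11, which hands secretory clients to Hspa5, by -0.12 ± 0.14 (adjusted p = 0.535).

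Dnajb12 and Dnajb14, J proteins anchored in the ER membrane, both had groups that did not overlap and were not called, at -0.30 ± 0.11 (adjusted p = 0.115) and -0.22 ± 0.10 (adjusted p = 0.194). The membrane J protein gene Dnajc1 differed by -0.21 ± 0.10 (adjusted p = 0.198). Dnajc10, a disulphide reductase, differed by -0.05 ± 0.11 (adjusted p = 0.770), and by 0.07 as deposited.

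**Figure D3:**
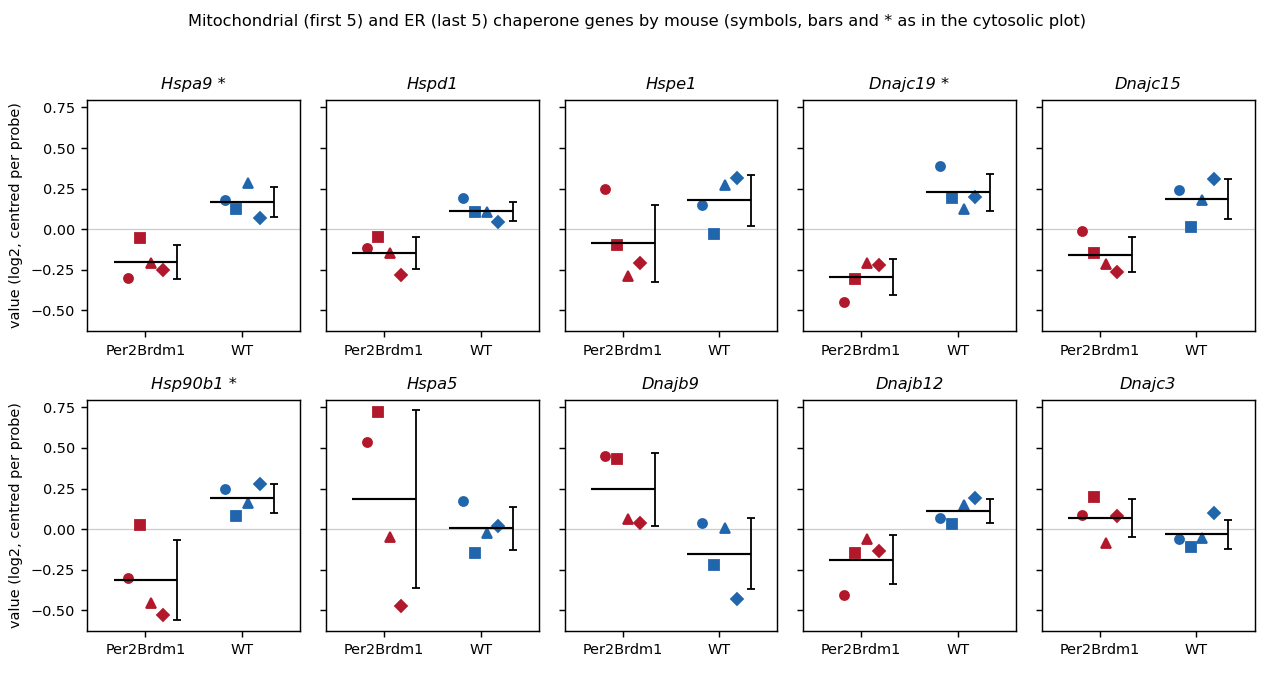
Values (log2, centred per probe) of 5 mitochondrial genes (upper row) and 5 ER genes (lower row) in each mouse, Per2Brdm1 left and WT right, with mean and SD as bars, n = 4 per group and an asterisk at adjusted p under 0.05. Hspa9, Hspd1, Dnajc19, Dnajc15, Hsp90b1 and Dnajb12 show no overlap, while Hspa5 spreads from 0.72 to -0.47 within the Per2Brdm1 mice.

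The 6 small heat shock protein genes other than Hspb1 all had negative differences, with a median of -0.86. Of these 1 fell and 0 rose by limma (0 higher and 4 lower at an unadjusted p under 0.05). Hspb9, known as a testis-expressed member, had -0.46, -1.15, -1.33 and -0.13 in Per2Brdm1 mice 1 to 4, against 0.34, 0.13, 0.28 and 0.30 in WT mice 1 to 4. The groups did not overlap, with the Per2Brdm1 mice spread and the WT mice tight. The difference was -1.03 ± 0.27 or 2.04-fold lower (adjusted p = 0.0373), and the call was lost without any mouse except Per2Brdm1 mouse 4 (adjusted p = 0.0527 to 0.0926).

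Hspb3, a partner of Hspb2 in striated muscle, had the most negative difference of all members without being called. Its values were -1.46, -1.28, -1.04 and 0.43 in Per2Brdm1 mice 1 to 4, against -0.12, 1.47, 0.23 and 1.998 in WT mice 1 to 4. Per2Brdm1 mouse 4 lay among the WT mice. The difference was -1.73 ± 0.59 (adjusted p = 0.0897), and without Per2Brdm1 mouse 4 it was -2.16 (adjusted p = 0.0439). Hspb3 also passed with the replicate number as a block (adjusted p = 0.0389). No other alternative fit of gene values called it (adjusted p = 0.0597 to 0.265). Hspb7, the small heat shock protein of heart and skeletal muscle, had -0.72, -1.22, -0.65 and -0.03 in Per2Brdm1 mice 1 to 4, against 0.03, 1.28, 0.17 and 1.59 in WT mice 1 to 4. The groups were separated only by the gap between Per2Brdm1 mouse 4 and WT mouse 1. The difference was -1.42 ± 0.41 (adjusted p = 0.0563), and without WT mouse 1 it was -1.67 (adjusted p = 0.0402). Hspb7 also passed with array weights and without probes that follow the control features (adjusted p = 0.0440 and 0.0496). No other alternative fit of gene values called it (adjusted p = 0.0552 to 0.173). Hspb2 (-0.69 ± 0.39, adjusted p = 0.231) and the smooth muscle member Hspb6 (-0.68 ± 0.28, adjusted p = 0.143) overlapped. Hspb8, the small heat shock protein that works with Bag3, differed by -0.17 ± 0.12 (adjusted p = 0.302).

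Skeletal muscle markers moved mouse by mouse with the gene values of Hspb2, Hspb3, Hspb6 and Hspb7, though not with every probe of Hspb2 and Hspb7. Their mean over 10 genes was -2.49, -3.16, -1.02 and 0.39 in Per2Brdm1 mice 1 to 4, against -0.32, 2.04, 0.54 and 2.49 in WT mice 1 to 4. WT mice 4 and 2 were highest both in the markers and in the gene values of Hspb2, Hspb3, Hspb6 and Hspb7. Per2Brdm1 mouse 4 was the highest Per2Brdm1 mouse in each of them. The called Hspb7 probe (-1.07 ± 0.26, adjusted p = 0.0304 in the fit of single probes) broke this order. It was lowest in Per2Brdm1 mouse 4, at -0.98, where the other Hspb7 probe stood at 0.92. An Hspb2 probe stood at -0.09 in WT mouse 2, below its 0.38 in Per2Brdm1 mouse 4. Of the 10 markers 0 were called by limma, although 10 were lower at an unadjusted p under 0.05, with a median difference of -2.83 and the contractile genes Acta1 (-3.07) and Myh4 (-3.26) and the muscle creatine kinase gene Ckm (-2.98) among them. Of 8 smooth muscle markers 2 fell. The part of muscle RNA in the small heat shock protein values was not tested.

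**Figure D4:**
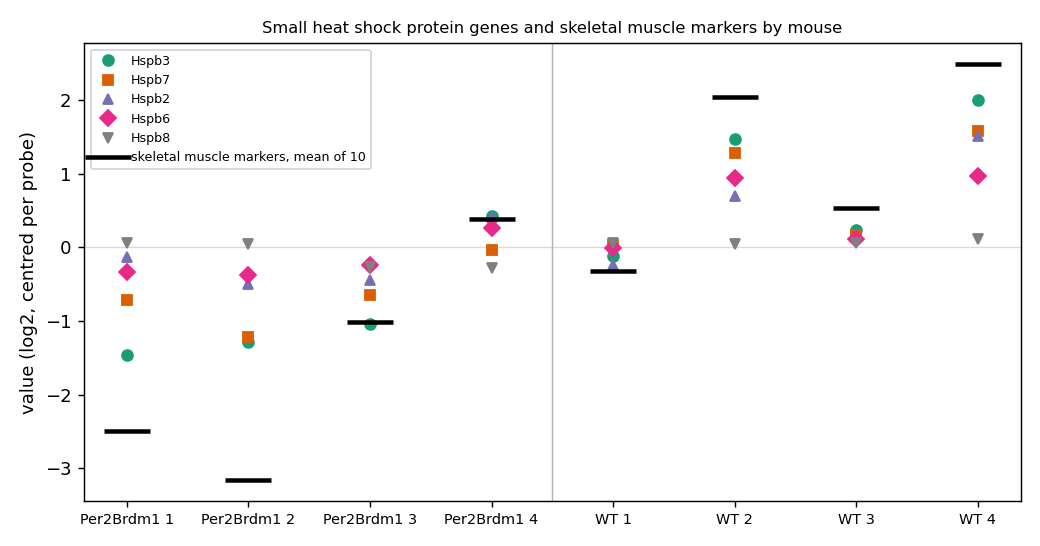
Values (log2, centred per probe) of 5 small heat shock protein genes (symbols) and the mean of 10 skeletal muscle markers (black bars) in each Per2Brdm1 mouse (left) and WT mouse (right). The gene values of Hspb2, Hspb3, Hspb6 and Hspb7 are highest where the markers are highest, in WT mice 4 (2.49) and 2 (2.04). Single probes of Hspb2 and Hspb7 depart from this order, and Hspb8 stays between -0.29 and 0.11.

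The last 26 members are class C J proteins and genes with an HSP name that the class lists do not hold, whatever their location in the cell. Mitochondrial genes may be among them, and a wider mitochondrial class was not tested. Of these 5 fell and 0 rose by limma (1 higher and 8 lower at an unadjusted p under 0.05), around a class median of -0.04. Dnajc4 had -0.21, -0.49, -0.41 and -0.24 in Per2Brdm1 mice 1 to 4, against 0.20, 0.21, 0.37 and 0.42 in WT mice 1 to 4. A clear gap around 0 separated the groups. The difference was -0.64 ± 0.11 or 1.55-fold lower (adjusted p = 0.00920), the smallest adjusted p among the 9 members that fell.

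Dnajc17, a nuclear J protein linked to splicing, had -0.37, -0.35, -0.32 and -0.11 in Per2Brdm1 mice 1 to 4, against 0.33, 0.10, 0.23 and 0.40 in WT mice 1 to 4. Per2Brdm1 mouse 4 and WT mouse 2 lay nearest each other, without overlap. The difference was -0.55 ± 0.11 (adjusted p = 0.0160). Dnajc28 differed by -0.55 ± 0.12 (adjusted p = 0.0231), with Per2Brdm1 mice from -0.61 to -0.16 and WT mice that were almost equal, from 0.17 to 0.20. Dnajc25 differed by -0.46 ± 0.10 (adjusted p = 0.0228), with Per2Brdm1 mice from -0.41 to -0.13 and WT mice from 0.12 to 0.24. Neither of these genes overlapped between the groups. Dnajc14, the ER membrane J protein named above and involved in receptor export, differed by -0.48 ± 0.12 (adjusted p = 0.0376). Its Per2Brdm1 mice lay from -0.24 to -0.11 and its WT mice from 0.19 to 0.61. The last value was that of WT mouse 2 alone, where the called probe stood at 0.40 and the other probe at 0.82.

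The calls of Dnajc4 and Dnajc17 held without each mouse in turn. That of Dnajc25 was lost without Per2Brdm1 mice 1 and 2 and WT mice 3 and 4 (adjusted p = 0.0530 to 0.0647), that of Dnajc28 without Per2Brdm1 mouse 2 and WT mice 2, 3 and 4 (adjusted p = 0.0553 to 0.0647), and that of Dnajc14 without any single mouse (adjusted p = 0.0560 to 0.0909). The highest difference in the class was that of Dnajc5b, a testis relative of the cysteine-string protein, at 0.87 ± 0.36 (adjusted p = 0.148), where Per2Brdm1 mouse 2 stood at 1.68 and the other Per2Brdm1 mice between -0.03 and 0.35.

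Single probes gave a further view of the same genes. Of the 143 member probes 11 rose and 17 fell, against 6.36% higher, 9.92% lower and 16.3% in either direction over all probes. Among the 44 members with several probes, the probes differed in sign in 16, and 0 members had probes called in both directions. Of the 15 called members 9 had every probe called and 1, Hspa9, had none called. Among these 9 only Hspa1a and Hspa1b had 2 probes, and the others had 1. In Hspa8, Hsp90b1, Dnajc14, Dnajc19 and Dnajc28 some probes were called and others were not. In Dnajb5, a J protein gene whose mean difference was 0.15, 1 of 3 probes rose by 0.77 ± 0.15 (adjusted p = 0.0124) while another stood at -0.37. In Dnajc24, which is needed for diphthamide formation, a probe fell by 0.32 ± 0.09 (adjusted p = 0.0495) while the other stood at 0.87 (adjusted p = 0.0766). Those 2 genes were singled out after their values were seen. Their gene means stand for neither probe.

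A set of member probes followed the control features, with a correlation above 0.9 over the 8 arrays. These were 7 probes (4.9% of member probes, against 12.9% of all probes), 1 each of Dnajb4, Dnajb7, Dnajc27, Hspa4, Hspa12a, Hspa13 and Hspb11, and none of the 7 was called. Their values lay between -1.12 and -0.91 in WT mouse 2 and between -0.86 and -0.68 in WT mouse 3. For Dnajb7 this was the only probe, so its difference of 0.48 (adjusted p = 0.215) rests on it. When such probes were left out of the whole table, all 15 member calls remained and 18 members were called.

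Chaperone genes that the symbols leave out covered co-chaperones, folding partners and heat shock factors. Of 69 listed genes 66 were measured, of which 4 rose and 8 fell, with a median of -0.17 after scaling. Of all rows 6.52% were called higher and 8.93% lower. Of the 19532 named genes 1393 were called higher and 2048 lower. In the values as deposited 4 list genes rose and 4 fell. The heat shock factor gene Hsf1 was not analysed here. Fkbp5, an HSP90 co-chaperone induced by glucocorticoids, had 0.51, 1.08, 0.47 and 0.48 in Per2Brdm1 mice 1 to 4, against -0.72, -0.41, -1.26 and -0.81 in WT mice 1 to 4. The groups were far apart, with Per2Brdm1 mouse 2 highest, and the difference was 1.43 ± 0.22 or 2.70-fold (adjusted p = 0.00514). Hmox1, the stress-inducible haem oxygenase and also a macrophage gene, had 1.57, 1.72, 0.85 and 0.40 in Per2Brdm1 mice 1 to 4, against -0.89, -0.87, -0.42 and -0.87 in WT mice 1 to 4. Its Per2Brdm1 mice 1 and 2 were high and mouse 4 low, as in Hspa1a, and the difference was 1.90 ± 0.30 or 3.72-fold (adjusted p = 0.00596). The lens and muscle small heat shock protein gene Cryab, next to Hspb2 on chromosome 9, was not called at -0.64 ± 0.20 (adjusted p = 0.0745).

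Among 10 other mitochondrial chaperone and protease genes 2 rose and 2 fell. Hscb, the J protein of iron-sulphur cluster assembly, had -0.99, -1.01, -0.69 and -0.52 in Per2Brdm1 mice 1 to 4, against 0.72, 0.52, 0.54 and 0.73 in WT mice 1 to 4. A wide gap separated the groups, and the difference was -1.43 ± 0.14 or 2.69-fold lower (adjusted p = 0.00117). The matrix protease gene Lonp1 fell by 0.74 ± 0.09 on the log2 scale (adjusted p = 0.00217). Clpx, the unfoldase of the ClpXP protease, differed by 1.23 ± 0.33 (adjusted p = 0.0435), with 1.65, 1.33, 0.95 and 0.0034 in Per2Brdm1 mice 1 to 4 and -0.46 to -0.07 in the WT mice. Per2Brdm1 mouse 4 was again nearest to WT. Grpel2, a nucleotide exchange factor for Hspa9, rose by 0.67 ± 0.18 (adjusted p = 0.0404). Both of these calls were lost without any mouse except Per2Brdm1 mouse 4 (Clpx, adjusted p = 0.0685 to 0.109; Grpel2, adjusted p = 0.0591 to 0.0999).

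The other calls in these lists were falls. In the cytosol they were the co-chaperone genes Sgta (-0.72 ± 0.12, adjusted p = 0.00682) and Cdc37 (-0.36 ± 0.08, adjusted p = 0.0264), which brings kinases to HSP90, the prefoldin subunit gene Pfdn1 (-0.70 ± 0.11, adjusted p = 0.00549) and the chaperonin subunit gene Cct4 (-0.38 ± 0.10, adjusted p = 0.0465). Hsbp1, a binding partner of heat shock factor 1, also fell (-0.37 ± 0.09, adjusted p = 0.0337). Of 14 ER folding genes 1 fell, the lectin chaperone gene Calr (-0.69 ± 0.17, adjusted p = 0.0287). Calls of Cct4 (adjusted p = 0.0612 to 0.107) and Cdc37 (adjusted p = 0.0520 to 0.0666) were lost without any single mouse. That of Hsbp1 was lost without any mouse except Per2Brdm1 mouse 1 (adjusted p = 0.0545 to 0.0880), and that of Calr without Per2Brdm1 mice 2, 3 and 4 and WT mice 3 and 4 (adjusted p = 0.0549 to 0.0782).

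Promoter motifs were counted in RefSeq windows of 300 bases, from 250 before to 50 after each start, which 60 of the 73 members had. Matches to 3 adjacent heat shock units (a pair as above with NNGAA or NNTTC added so that units alternate, either strand) were found in 4 of the 60 members (6.67%), against 0.662% of the 27025 genes with a window. The 4 genes were Dnajb6, Hspd1, Hspe1 and Hsph1, of which 1, Hsph1, was called. Hspd1 and Hspe1 lie head to head, and their matches are the same stretch of DNA. That stretch was therefore counted for both genes, here and among the pairs below. Pairs of units, which each match to 3 units also contains, were found in 16 members (26.7%), against 17.0% of all genes. They were present in 5 of the 6 inducible genes with a window, in 4 of the 5 members called higher and in 0 of the 8 members called lower that had windows. All 4 of those higher members belong to the inducible class, whose genes share regulation through heat shock factor 1. The Hspa1a and Hspa1b promoters, counted separately, differ at only 3 of 250 bases. With so few genes, a link between pairs of units and the direction of change was not tested. The ER stress element was found in 3 members (Hspa5, Hsp90b1 and Dnajc3), against 0.137% of all genes, and of the 3 only Hsp90b1 was called. The E-box CACGTG, the letters bound by clock activators among other factors, was found in 7 members (11.7%), against 8.09% of all genes, and of the called members only in Hsph1. These are matches of letters in a short window and not measured binding sites.

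The calls differed in how they stood up to changes of the fit. Without WT mice 2 and 3, the mice with low control features, 1 of the 15 member calls remained, that of Dnajc17 (-0.65, adjusted p = 0.0427), while the differences of the other 14 kept their direction at adjusted p = 0.0526 to 0.197. In that smaller fit Hspa1a differed by 2.80, Hspa1b by 2.53, Hspa1l by 1.75 and Dnajc4 by -0.65. The same fit called 879 of all rows higher and 887 lower, against 1828 and 2505 in the main fit. Calls thus fell more among the members than over all rows. Values as deposited kept 9 of the 15 calls, and leaving out 1 mouse kept between 5 and 10. Of the 15 calls 5 held without each of the 8 mice in turn, those of Hspa1b, Hspa1l, Dnajc4, Dnajc17 and Dnajc19.

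**Figure D5:**
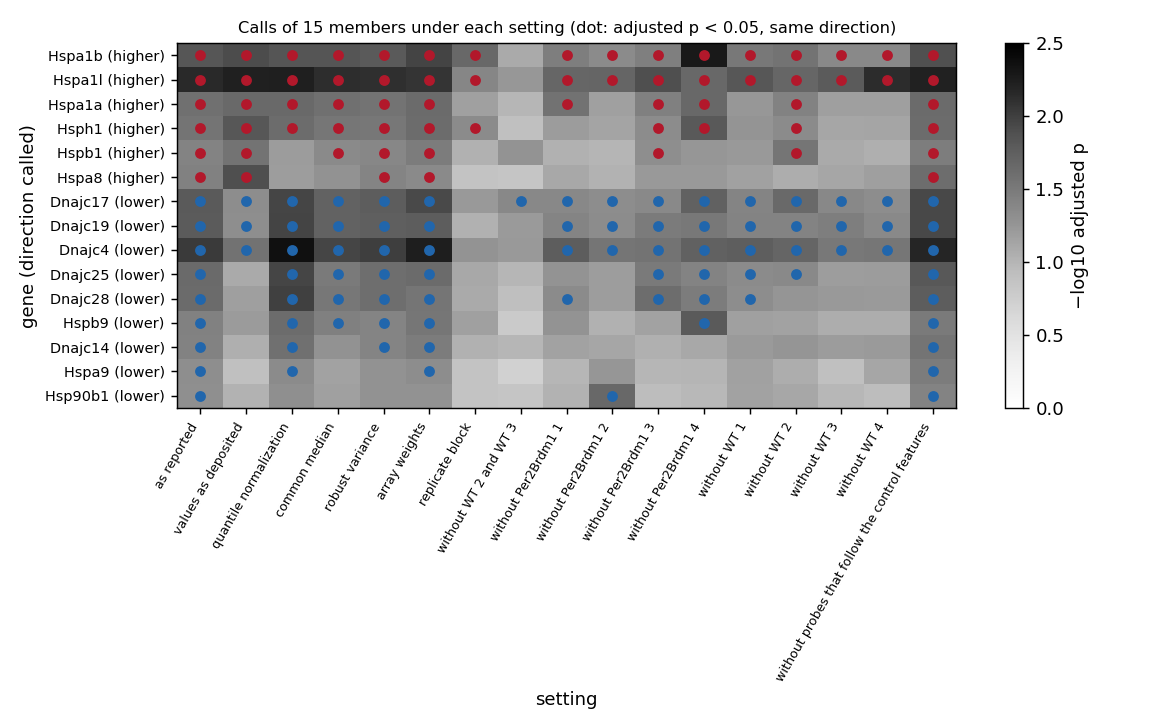
Adjusted p (grey scale, -log10) of the 15 called members (rows) in each fit (columns), with a dot where the call held in the same direction, red for higher and blue for lower. Hspa1b and Hspa1l keep their dots in each fit except the one without WT 2 and WT 3. Hspa8, Hspa9, Dnajc14, Hsp90b1, Hspb9 and Hspb1 lose theirs in most fits.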

How the data were processed

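The deposited values are log2 values by range, as the authors state neither log base, normalization method nor direction in the sources used here. Base 2 was inferred, higher was taken as brighter, and signal over background is not given. Per the labels, RNA was labelled with Cy3 for 1-colour Agilent arrays. Each probe was centred on its median over the 8 arrays. Arrays were shifted to a common 75th percentile, 78 control features were left out, and probes with the same single symbol were averaged. That gave 19532 named genes and 8510 unnamed rows (28042 in all), with 41174 probes also fitted singly. Groups were compared with limma 3.58.1 (lmFit, eBayes, two-sided, R 4.3.3), with Benjamini-Hochberg adjustment over all rows. Nothing states whether values were filtered before deposit. The procedure was tested on simulated data.

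The members, classes, lists and alternatives were chosen with earlier results of these data known. Genes named are all called members, all inducible, mitochondrial and ER members, called genes of the lists, and the 3 largest differences in each direction among the other members. Dnaja2, Dnajb6, Dnajb5, Dnajc24, Dnajb7, Hspb6, Hspb8, Cryab and the muscle markers Acta1, Myh4 and Ckm were added after their values were seen. Classes are lists drawn up from known location and kind. Members on no list were counted as other J proteins and HSP-named genes. Some of these lie in the ER membrane, and others may lie in mitochondria. A wider ER class was tried, but a wider mitochondrial class was not tested. The symbols of all 73 members are current in RefSeq (GRCm38.p6), the source of the promoter sequences. The alternatives tried were other scalings, robust variance, array weights, single probes, a replicate block, and leaving out mice. A fit without probes that follow the control features and an ER class with 3 more J proteins were chosen after seeing the data.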

Additional observations from a re-analysis of the deposited data

Results flagged for a closer look

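In 6 of 170 groups of 4 mice (85 genes in each genotype), 1 mouse lay farther from the other 3 than Dixon's critical value for a group of 4 allows, and chance flags about 1 in 20 such groups. Among members, Dnajc14 stood at 0.61 in WT mouse 2, against 0.19 to 0.25 in the other WT mice. Dnajc6, the auxilin gene, stood at 0.51 in Per2Brdm1 mouse 2, against -0.13 to -0.03 in the other Per2Brdm1 mice, and it was not called. Hspb11 stood at 0.088 in Per2Brdm1 mouse 4, against -0.04 to -0.03 in the others, a gap smaller than most differences described here. Outside the members, Fkbp5 stood at 1.08 in Per2Brdm1 mouse 2, against 0.47 to 0.51 in the others. Grpel2 stood at -0.50 in WT mouse 1, against -0.20 to -0.16 in the others, and Hmox1 at -0.42 in WT mouse 3, against -0.89 to -0.87 in the others. The flags fell on 5 of the 8 mice.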

How the results depend on the processing

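With 4 mice per group most calls lay close to the threshold, and without levels no filter on dim probes was possible. Leaving out each mouse gave 2 to 6 members higher and 3 to 7 lower (inducible 1 to 4 called, other cytosolic 1 to 2, mitochondrial 1 in each fit, ER 0 to 1, other small heat shock proteins 0 to 2, other J and HSP-named genes 2 to 5) and 2 to 4 list genes higher and 4 to 6 lower. Without both WT mice 2 and 3, 0 members were higher and 1 was lower, Dnajc17 of the other J proteins, with 2 list genes higher and 4 lower. Over all rows 879 were higher and 887 lower in that fit. As deposited, 8 members were higher and 3 lower (mitochondrial 1, ER 0, other J 2, other small heat shock 0), with 4 list genes lower. Quantile normalization gave 1 call in the other cytosolic class and 0 in the ER class, and a common median gave 1, 1 and 0 in the other cytosolic, mitochondrial and ER classes. Robust variance gave 1 mitochondrial and 0 ER calls, and array weights gave 0 ER and 2 small heat shock calls, and 2 small heat shock calls were also made without probes that follow the control features. The direction of 6 differences in 4 uncalled genes changed: Dnaja1 (0.056 as deposited and 0.059 without Per2Brdm1 mouse 4, the range over single mice being -0.14 to 0.059), Dnajc10 (0.073 as deposited), Dnajc11 (0.046 without Per2Brdm1 mouse 3 and 0.098 without WT mouse 1, range -0.43 to 0.098) and Hspa5 (-0.0001 without Per2Brdm1 mouse 2, range -0.0001 to 0.40). With Dnajc14, Dnajc16 and Dnajc18 counted as ER genes, 2 ER members and 4 other J and HSP-named genes were called. By single probes 16 members had a probe called lower (other cytosolic 6, mitochondrial 1, ER 3, other small heat shock 2, other J 9, in either direction). The methods' t-test per probe found 16 members higher and 23 lower at the study's unadjusted threshold (16.9% and 27.4% of all named genes), and 8 higher and 19 lower after Benjamini-Hochberg (9.68% and 17.2% of all named genes). Pairs of heat shock units in place of 3 units were found in 16 members. The cause of these changes was not tested, beyond the smaller number of mice.

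Replicate numbers did not pair the mice: the correlations of same-numbered mice were 0.02, 0.08, -0.10 and 0.10. With the number as a block, 3 members were higher and 1 lower (inducible 2, other cytosolic 1, mitochondrial 0, ER 0, other J 0), 3 of the 15 calls remained, and 2 list genes were higher and 4 lower. Over all rows the block fit called 1011 higher and 1019 lower.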
